A study of Mus musculus with 14 samples.

Results

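Of the 49315 genes counted, 4 were followed across primary microglia from TIMP2 KO and WT mice: Engase, Gm11748, Ngly1 and Man2c1. They were chosen by symbol: Engase, the transcript that overlaps its start (Gm11748), and the 2 other cytosolic enzymes that release and trim free N-glycans. Engase and Gm11748 were picked because their counts differed between these same KO and WT libraries, so for both the KO and WT values are a description and no test is given. Ngly1 and Man2c1 were picked for their role in the pathway and were tested.

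N-glycans are branched sugar chains that the oligosaccharyltransferase attaches to new proteins in the endoplasmic reticulum (ER). When a glycoprotein misfolds, ER-associated degradation pulls it into the cytosol, where NGLY1 (peptide N-glycanase) cuts the whole sugar chain off the protein. ENGASE (endo-beta-N-acetylglucosaminidase) then cuts the released chain between the paired N-acetylglucosamines at its base, and MAN2C1, a cytosolic alpha-mannosidase, removes mannose residues before the remainder is taken up by the lysosome. The same NGLY1 also acts on the transcription factor NFE2L1, which controls proteasome genes.

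Bulk RNA-seq was performed on 14 libraries, 7 from TIMP2 KO and 7 from WT mice, labelled as strain C57BL/6 and kept on a C57Bl/6J background according to the methods of the study. The KO mice lack Timp2, the gene for tissue inhibitor of metalloproteinases 2, in all tissues and from the germline, and WT mice were the controls. Each library came from the pooled forebrains of 5 pups of both sexes at postnatal days 6 to 7, from which microglia, the resident macrophages of the brain, were purified with CD11b beads and cultured without further treatment. A KO library therefore carries the deletion in every cell of the culture. According to the study, the mice were kept in-house with WT littermates, and KO mice have to be bred from heterozygous pairs. Its methods for the bulk RNA-seq do not say whether the KO and WT pups were littermates. Loss of TIMP2 and any other difference between the KO and WT mice cannot be told apart. The targeted gene behaved as labelled: Timp2 was at 119 to 129 CPM (reads scaled to a common library size by the TMM method) in KO and at 397 to 495 CPM in WT, so that KO cultures kept 26.4% of the WT level. Libraries held 38875344 to 48070236 counted reads. All 12 microglial marker genes were detected and their summed level overlapped between genotypes (7796 to 10391 CPM in KO and 7736 to 9992 CPM in WT), although Tmem119 and Siglech, markers of microglia in the intact brain, were at most 6.27 and 5.86 CPM.

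In the GENCODE annotation of mouse genome build GRCm38, Engase (ENSMUSG00000033857) lies on the forward strand at chr11:118476829-118489209, with 9 annotated transcripts, 2 of them protein-coding. Gm11748 (ENSMUSG00000087036) is a non-coding transcript of 2 exons on the reverse strand at chr11:118476470-118479458, so it starts inside Engase and runs out past its start. Of its 1498 exonic bases, 431 (28.8%) are also exonic in Engase on the other strand, and they make up 8.31% of the exonic bases of Engase. The sources used here do not give the strand setting of the counting, and without strand, reads in those shared bases cannot be told apart. More of Gm11748 lies within introns of Engase. Its exon 1 has all 182 bases inside the Engase gene body, 11 of them exonic in Engase. Its exon 2 has 957 of 1316 bases inside that body, 420 of them exonic in Engase. Without strand, reads of unspliced Engase RNA in these intronic bases could not be told apart from Gm11748 either. Ngly1 (ENSMUSG00000021785) lies on the forward strand at chr14:16249280-16311926, and Man2c1 (ENSMUSG00000032295) on the forward strand at chr9:57130690-57142722.

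The sequence before the start of each enzyme gene is shown because Engase and Gm11748 share it. The 300-base RefSeq promoter window of Engase (GRCm38.p6, forward strand, chr11:118476582-118476881) lies within exons of Gm11748 over all 300 of its bases, so the DNA that precedes Engase is itself transcribed sequence of Gm11748 on the other strand. The windows are printed up to the last base before the GENCODE start, which is chr11:118476582-118476828 for Engase, chr14:16249064-16249279 for Ngly1 and chr9:57130527-57130689 for Man2c1. Capitals mark the GC box, searched as GGGCGG and its reverse complement CCGCCC.
Engase: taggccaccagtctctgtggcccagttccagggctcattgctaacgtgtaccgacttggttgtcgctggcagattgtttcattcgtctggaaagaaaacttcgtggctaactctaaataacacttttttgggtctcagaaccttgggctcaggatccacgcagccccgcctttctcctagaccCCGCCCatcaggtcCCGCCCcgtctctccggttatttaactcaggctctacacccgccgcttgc
Ngly1: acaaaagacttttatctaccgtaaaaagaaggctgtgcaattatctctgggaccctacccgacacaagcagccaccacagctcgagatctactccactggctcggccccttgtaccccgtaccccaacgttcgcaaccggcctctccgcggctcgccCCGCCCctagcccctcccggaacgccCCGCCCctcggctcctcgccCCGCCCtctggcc
Man2c1: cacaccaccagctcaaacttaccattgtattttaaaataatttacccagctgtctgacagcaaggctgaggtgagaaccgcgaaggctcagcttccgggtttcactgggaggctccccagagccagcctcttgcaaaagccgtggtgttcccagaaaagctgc

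Within the full windows the Engase promoter held 2 GC boxes, the Ngly1 promoter 3 and the Man2c1 promoter 0, and 35.7% of the 32851 mouse promoter windows of this length held at least 1. The CCAAT box (CCAAT or ATTGG), the TATA box (TATAAA or TTTATA) and the E-box CACGTG had 0 matches in all 3 windows, and they occur in 37.4%, 13.6% and 7.15% of all windows. The 3 windows held 20 (Engase), 32 (Ngly1) and 16 (Man2c1) CpG dinucleotides, against a median of 7 over all windows. These letter matches describe the windows and say nothing about which factors act there.

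The first exon of Gm11748 (chr11:118479277-118479458, reverse strand, 182 bases, from the GENCODE transcript) lies inside the Engase gene body but almost wholly outside its exons. Part of the second exon also lies inside the Engase gene body and outside its exons. Capitals mark the 11 bases, positions 172 to 182 of the exon, that are also exonic in Engase.
Gm11748 exon 1: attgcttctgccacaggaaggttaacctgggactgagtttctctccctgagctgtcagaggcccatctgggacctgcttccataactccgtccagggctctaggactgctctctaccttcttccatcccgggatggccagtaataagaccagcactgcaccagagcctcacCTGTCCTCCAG

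Engase transcripts in TIMP2 KO microglia were at less than the WT level in every library. The lowest, median and highest Engase levels were 49.4, 57.1 and 74.2 CPM in KO. In WT they were 115, 128 and 155 CPM. The genotypes did not overlap, and the lowest WT library was 1.55 times the highest KO library. The means were 57.8 ± 8.45 CPM in KO and 131 ± 13.8 CPM in WT (SD, n = 7 each), so KO cultures held 44.3% of the WT level. The fitted log2 fold change, KO over WT, was -1.18 (standard error 0.09, 95% interval -1.36 to -0.99).

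Gm11748 differed in the same direction at a far lower level. Its lowest, median and highest levels were 1.23, 1.79 and 2.29 CPM in KO, from 52 to 93 counted reads per library. In WT they were 3.64, 5.03 and 5.65 CPM, from 152 to 265 reads. Again the KO libraries all lay below the WT libraries, with 1.72 ± 0.36 CPM in KO and 4.87 ± 0.78 CPM in WT (SD, n = 7 each). KO cultures held 35.3% of the WT level, and the log2 fold change was -1.50 (standard error 0.14, 95% interval -1.81 to -1.19). For these 2 genes the contrast is the one they were chosen by, so their place among the counts that follow is part of the choice and nothing is read from it. Among all 15700 genes that passed the filter on low counts, KO and WT did not overlap for 13 (0.0828%), in 12 of which (0.0764%) KO was lower throughout, and 3 (0.0191%) had an edgeR adjusted p below 0.05, the chosen pair and Timp2. Next to Gm11748, on the other side of that threshold, was Caskin2, at -0.66 on the log2 scale. The study itself used DESeq2 with batch as a covariate and reported further genes with an adjusted p below 0.05. Its volcano plot names Engase and Caskin2.

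**Figure D1:**
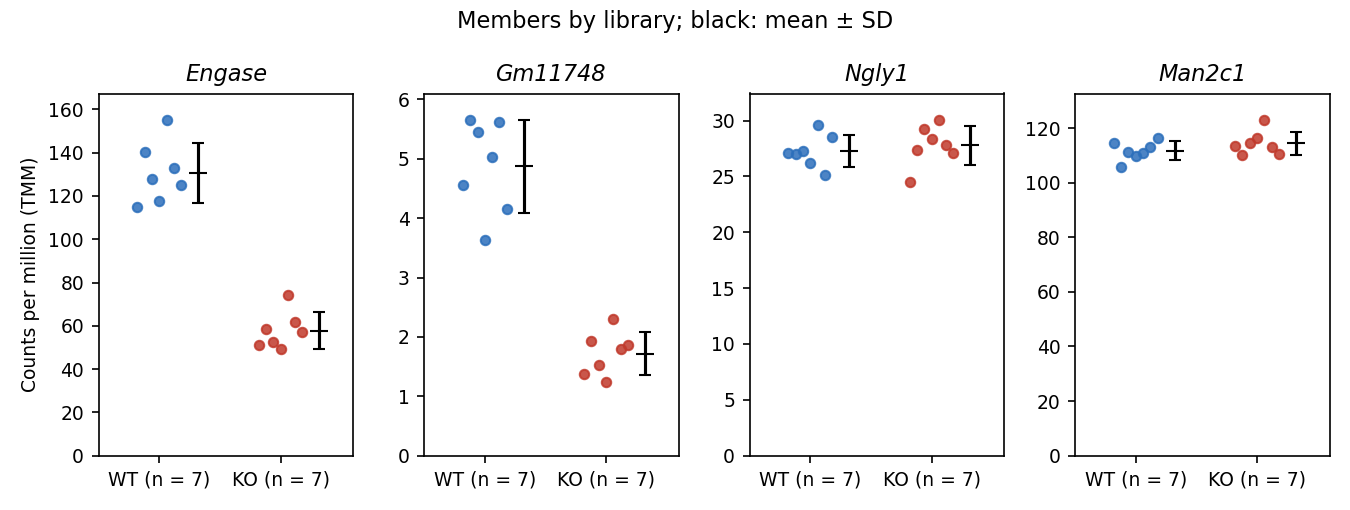
CPM of Engase, Gm11748, Ngly1 and Man2c1 in each of 7 WT (blue) and 7 KO (red) libraries, with the mean ± SD in black and each axis starting at 0. Engase and Gm11748 do not overlap between genotypes (KO at most 74.2 and 2.29 CPM, WT at least 115 and 3.64 CPM), while the KO and WT ranges of Ngly1 and Man2c1 overlap.

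Ngly1 and Man2c1, whose products act before and after ENGASE on the same glycans, were tested to ask whether the rest of this short pathway differed between genotypes as Engase did. Ngly1 was at 24.5, 27.9 and 30.0 CPM (lowest, median and highest) in KO and at 25.2, 27.1 and 29.6 CPM in WT. The ranges overlapped, with 5 of 7 KO libraries inside the WT range. The means were 27.8 ± 1.76 and 27.3 ± 1.47 CPM (SD, n = 7 each), and the log2 fold change was 0.03 (standard error 0.04, 95% interval -0.07 to 0.12, edgeR adjusted p = 0.957). The interval allows a KO level between 0.953 and 1.09 times that of WT.

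Man2c1 was at 110, 113 and 123 CPM in KO and at 106, 111 and 116 CPM in WT. Here too 5 of 7 KO libraries fell inside the WT range. The means were 114 ± 4.29 and 112 ± 3.39 CPM (SD, n = 7 each), and KO over WT gave a log2 fold change of 0.03 (standard error 0.03, 95% interval -0.02 to 0.09, edgeR adjusted p = 0.943). That interval allows 0.983 to 1.07 times the WT level. Of the 2 tested enzymes, 0 passed the threshold, and both intervals leave out a change of the size described for Engase. An exact two-sided permutation test of log2 CPM gave p = 0.578 for Ngly1 and p = 0.229 for Man2c1.

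Both tested enzymes also overlap a gene on the other strand. Ngly1 shares 21 exonic bases with Oxsm. Man2c1 shares 461 exonic bases with the antisense transcript Man2c1os, 6.54% of its own exons, an overlap similar in kind to that of Engase and Gm11748. Man2c1os, named after its values were seen, was at 0.955 to 1.81 CPM in KO and at 0.909 to 1.71 CPM in WT, and its log2 fold change was 0.09 (standard error 0.16, edgeR adjusted p = 0.961).

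Levels of different genes were compared per length, as CPM per kilobase of all annotated exons merged (RPKM). In WT microglia Engase stood highest with 25.2 ± 2.67 RPKM, followed by Man2c1 with 15.8 ± 0.48 RPKM (SD, n = 7 each), and their ranges did not overlap. Ngly1 with 3.61 ± 0.19 RPKM and Gm11748 with 3.25 ± 0.52 RPKM came next, and their ranges overlapped (3.33 to 3.92 and 2.43 to 3.77 RPKM). In KO microglia Man2c1 stood highest with 16.2 ± 0.61 RPKM, above Engase with 11.2 ± 1.63 RPKM, Ngly1 with 3.68 ± 0.23 RPKM and Gm11748 with 1.15 ± 0.24 RPKM, and no neighbours in that order overlapped.

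The place of Engase relative to Man2c1 in WT depended on the length used. Divided by the longest annotated transcript instead, Engase was at 26.7 to 36.0 RPKM and Man2c1 at 27.7 to 30.4 RPKM in WT, which overlap. In KO the order held under both lengths, with Engase at 11.5 to 17.2 RPKM and Man2c1 at 28.9 to 32.2 RPKM by the longest transcript. The overlap of Ngly1 and Gm11748 in WT also depended on the length. By the longest transcript Ngly1 was at 7.63 to 9.00 RPKM and Gm11748 at 2.43 to 3.77 RPKM, which do not overlap. Within a library the Engase level was 1.37 to 1.90 times that of Man2c1 in WT and 0.578 to 0.821 times in KO (merged exons). The corresponding ratio of Man2c1 to Ngly1, which does not involve Engase, was 4.01 to 4.82 in WT and 4.20 to 4.95 in KO (exact permutation test of log2 ratios, two-sided, p = 0.862, n = 7 each).

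**Figure D2:**
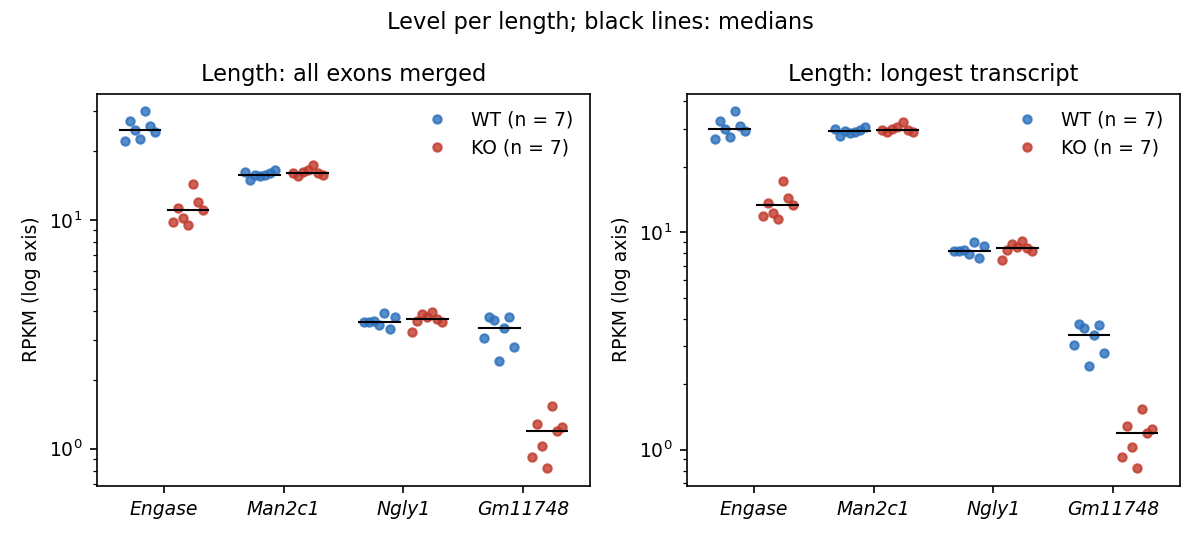
RPKM of the 4 genes on a log axis in 7 WT (blue) and 7 KO (red) libraries, with medians as black lines. The left panel uses merged exons, by which WT Engase lies above Man2c1 without overlap, and the right panel the longest transcript, by which the WT ranges of the pair overlap while Engase in KO stays below Man2c1.

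Engase also varied more between libraries of one genotype than the other 2 enzymes did. The coefficient of variation of its CPM was 14.6% in KO and 10.6% in WT, where counting error alone would give 2.03% and 1.31%. The coefficients were 6.34% and 5.38% for Ngly1 and 3.75% and 3.04% for Man2c1, with counting errors between 1.41% and 2.93%. For Gm11748 they were 21.1% and 16.1%, of which counting error would give 11.8% and 6.75%. These spreads are described and were not tested against each other.

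Whether the overlapping pair moved together was examined within each genotype, since the difference between genotypes would otherwise set the relation. In KO, Pearson's r of the log2 CPM of Engase and Gm11748 was 0.92 (exact permutation p = 0.00357) and Spearman's rho was 0.89 (exact permutation p = 0.0123, n = 7). In WT, r was 0.59 (exact permutation p = 0.146) and rho was 0.68 (exact permutation p = 0.11, n = 7). Adjusted over the 12 relations computed (6 pairs of genes in each genotype), r in KO had an exact permutation p of 0.0429 and rho one of 0.148, and the WT values were 0.583 and 0.438. With the 2 libraries farthest from the median Engase level left out, r was 0.86 in KO (exact permutation p = 0.117) and 0.88 in WT (exact permutation p = 0.0167), each over 5 libraries, so the KO relation no longer passed 0.05 and the WT relation did. The pair shares 431 exonic bases, and more of Gm11748 lies within introns of Engase. The part of reads from either stretch in the relation was not tested.

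Of the 10 relations between the other pairs of members, 0 reached an adjusted p under 0.05, and their r lay between -0.41 and 0.60. For Engase and Man2c1 in KO the measures differed in sign, with rho = -0.11 (exact permutation p = 0.84, adjusted 0.84, n = 7), r = 0.50 (exact permutation p = 0.299, adjusted 0.583) and r = -0.45 without the 2 libraries farthest from the median.

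Gm11748 had 2.5% to 3.29% as many reads as Engase in KO (median 2.91%) and 3.10% to 4.27% in WT (median 3.96%). The ranges overlapped in part. Both values enter the contrast by which the genes were chosen, so the ratio is a description.

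**Figure D3:**
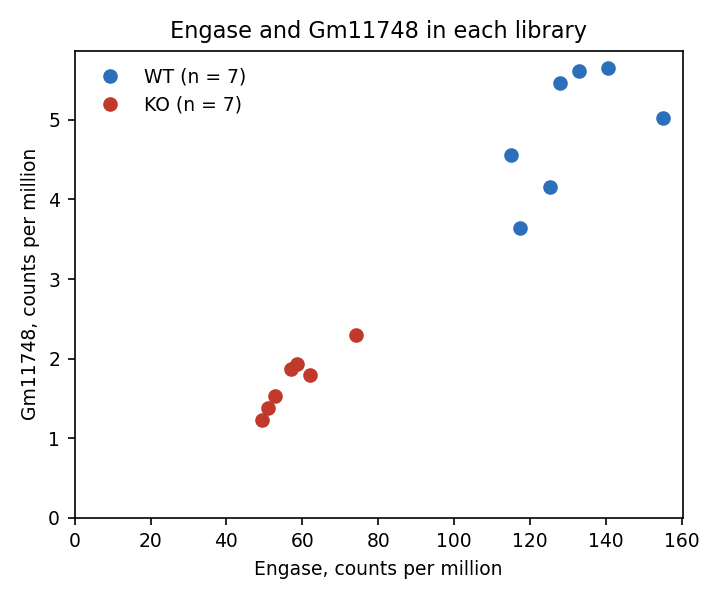
CPM of Gm11748 against those of Engase in each library, 7 WT (blue) and 7 KO (red), with both axes starting at 0. The KO libraries lie between 49.4 and 74.2 CPM of Engase and below 2.3 CPM of Gm11748, apart from the WT libraries on both axes.

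Engase is close to the deleted gene. Its start lies 121 kb from the start of Timp2 on chromosome 11, and 7 other genes besides Timp2 and Gm11748 lie within 200 kb of its gene body. Of these, 6 passed the filter on low counts, and Gm11747, an antisense transcript, did not (mean of 0.786 reads). With edgeR, 0 of the 6 passed an adjusted p under 0.05. An unadjusted p under 0.05 was reached by 3 of the 6, all 3 lower in KO, against 3.37% of all genes tested.

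The 3 were Usp36, a ubiquitin-specific protease, C1qtnf1, a secreted C1q and TNF related protein, and Cep295nl. C1qtnf1 lies between Timp2 and Engase, and Cep295nl lies within Timp2. Usp36 was at 29.2 to 34.9 CPM in KO and at 31.9 to 37.7 CPM in WT, and its log2 fold change was -0.15 (standard error 0.05, edgeR adjusted p = 0.943). C1qtnf1, at 0.14 to 1.22 CPM in KO and 0.36 to 2.23 CPM in WT, differed by -1.04 on the log2 scale (standard error 0.43, edgeR adjusted p = 0.943). The log2 fold change of Cep295nl was -0.53 (standard error 0.23, edgeR adjusted p = 0.943). The genes between Timp2 and Engase that were well expressed, Lgals3bp and Cant1, had log2 fold changes of -0.01 and 0.04 (edgeR adjusted p = 0.984 and 0.943). Rbfox3, a neuronal splicing factor whose 3' end lies 0.553 kb beyond that of Engase on the other strand, differed by -0.24 on the log2 scale (standard error 0.15, edgeR adjusted p = 0.943).

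The wider pathway was followed through 70 genes in 7 lists, of which 68 passed the filter on low counts. With edgeR, 0 of the 68 passed an adjusted p under 0.05 in either direction (0 with DESeq2 too), against 0.0191% of all genes. An unadjusted p under 0.05 was reached by 2 of the 68, against 3.37% of all genes. The log2 fold change was positive for 35 and negative for 33, with a median of 0.00 both for these genes and for all genes tested.

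For the enzymes that build and first trim the glycan, the differences were small. All 12 genes of the oligosaccharyltransferase had log2 fold changes between -0.04 and 0.02, with the smallest p for Magt1 (-0.04, standard error 0.03), an oxidoreductase subunit, and Dad1 (-0.04, standard error 0.04), a small structural subunit. Of the 11 genes for glycan trimming and glycan-dependent folding in the ER, those with the smallest p were Edem2 (0.07, standard error 0.05) and Edem3 (-0.07, standard error 0.05), mannosidase family proteins that mark misfolded glycoproteins for removal. The 5 Golgi alpha-mannosidases lay between 0.00 and 0.04, led by Man2a1 (0.04, standard error 0.07) and Man2a2 (0.01, standard error 0.04).

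The machinery that delivers glycoproteins to NGLY1 was likewise close to 0. Of the 13 tested genes of ER-associated degradation, 0 passed, with log2 fold changes between -0.05 and 0.04 and the smallest p for Syvn1 (0.04, standard error 0.02, edgeR adjusted p = 0.943, unadjusted value under 0.05), the ubiquitin ligase of the ER membrane, and Rad23b (-0.05, standard error 0.02), which binds NGLY1 and the proteasome. Of the 12 genes of NFE2L1 and the proteasome, 4 had positive and 8 negative log2 fold changes, none outside -0.04 to 0.03, led by Psmc1 (-0.04, standard error 0.02) and Psmd12 (-0.04, standard error 0.02), both subunits of the regulatory particle. Nfe2l1 itself differed by 0.00 on the log2 scale (standard error 0.05).

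The F-box proteins that recognise N-glycans on cytosolic glycoproteins held the widest interval. Fbxo2, which is abundant in the nervous system, was at 0.345, 1.35 and 5.73 CPM (lowest, median and highest) in KO and at 0.856, 3.11 and 13.6 CPM in WT. Its log2 fold change was -1.13 with a standard error of 0.66 (edgeR adjusted p = 0.943), so its point estimate is near that of Engase but its ranges overlap widely. Fbxo6, its paralog, differed by 0.07 on the log2 scale (standard error 0.05). Fbxo27 and, among the ER-associated degradation genes, Derl3 did not pass the filter on low counts.

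The lysosomal hydrolases, which finish the breakdown of the glycans that MAN2C1 trims, included the gene with the smallest p of the whole pathway. Man2b2, a lysosomal alpha-mannosidase, differed by 0.09 on the log2 scale (standard error 0.03, edgeR adjusted p = 0.943, unadjusted value under 0.05), and Man2b1, the main lysosomal alpha-mannosidase, one of 0.08 (standard error 0.04, edgeR adjusted p = 0.943). Of the 11 genes, 9 had positive and 2 negative log2 fold changes, with a median of 0.02 beside 0.00 for all genes.

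**Figure D4:**
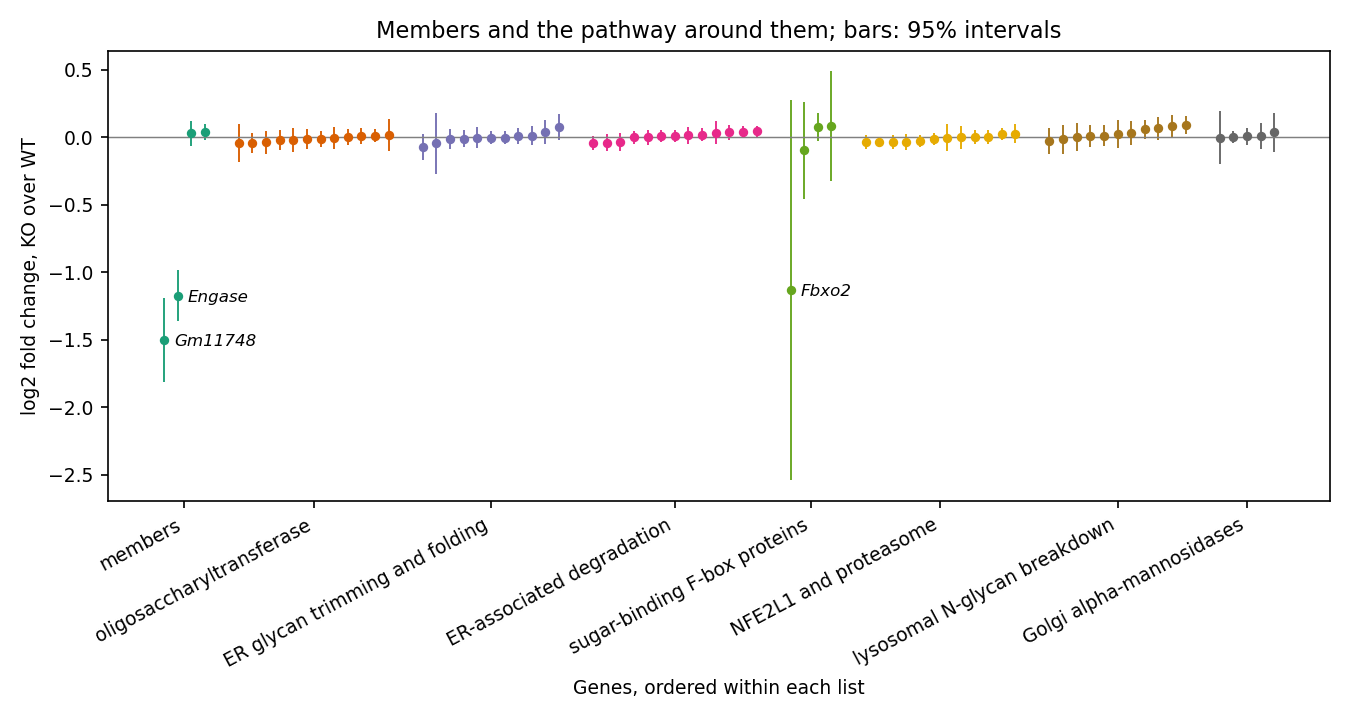
Log2 fold change, KO over WT, with 95% intervals for the 4 members and the 68 tested genes of the 7 pathway lists, ordered by value within each list. Engase and Gm11748 lie at -1.18 and -1.50, Fbxo2 at -1.13 with an interval from -2.54 to 0.27, and the other pathway genes between -0.10 and 0.09.

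The genes whose level was most like that of Engase were ranked by Pearson's r of log2 CPM among 15696 genes. Over all 14 libraries they were Timp2 (r = 0.95), Cycs (0.89), Rfk (0.87), Smpd1 (0.83) and Fam104a (0.82). Engase was chosen by its genotype difference and Timp2 is the deleted gene, so their high r was set in advance and nothing is read from it. Within a genotype their extremes lay opposite. WT replicate 5 had the highest Engase (155 CPM) and the lowest Timp2 (397 CPM) of WT. KO replicate 4 had the lowest Engase (49.4 CPM) and the highest Timp2 (129 CPM) of KO. After the mean of each genotype was removed, the 5 genes most like Engase were Phf13 (0.95), Capn3 (0.95), Khnyn (0.94), Map4k2 (0.93) and Sesn1 (0.91). The replicate number, which Engase followed in both genotypes (r = 0.92 between KO and WT over 7 numbers), was not removed. Its part in these r values was not tested. The lists had 0 genes in common, and the points of both share library and depth. The first 5 after removal had log2 fold changes between 0.00 and 0.12, so their likeness to Engase lay in the spread between cultures of one genotype.

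Markers of cells other than microglia were detected. The border macrophage list had the highest sum of these, 488 to 803 CPM in KO and 440 to 868 CPM in WT, with Mrc1 (means of 435 and 440 CPM) and Ms4a7 (144 and 132 CPM) as its main genes. Lower in the same list were Pf4 (20.6 and 19.4 CPM), Cd163 (0.707 and 0.483 CPM) and Lyve1 (0.0486 and 0.0355 CPM). Whether this sum came from border macrophages or from the cultured microglia was not tested. The oligodendrocyte lineage list summed to 146 to 189 CPM in KO and 152 to 207 CPM in WT. The 10 astrocyte markers summed to 33.2 to 163 CPM in KO and 38.1 to 302 CPM in WT, and the 10 neuron markers to 20.9 to 46.2 CPM in KO and 26.7 to 55.4 CPM in WT. All 10 genes of each list had a negative log2 fold change, 0 passed the threshold in edgeR, and the sums overlapped between genotypes (exact permutation p = 0.258 for astrocytes and p = 0.189 for neurons, both 0.367 adjusted over 8 marker lists, n = 7 each). In the microglial list 1 of 12 genes had a negative log2 fold change and 0 passed (exact permutation p = 0.275 for its sum, 0.367 adjusted). The summed markers of oligodendrocyte lineage, endothelial, border macrophage, fibroblast and pericyte, and blood leukocyte lists also overlapped (exact permutation p between 0.14 and 0.844). Of their tested genes, 7 of 9, 1 of 5, 1 of 4, 5 of 5 and 0 of 3, in that order, had negative log2 fold changes. No marker gene was at 0 in all libraries, the T cell marker Cd3e was at 0 in 8 of 14, and the part of these cells in the levels of Engase was not tested. In bulk cultures, fewer cells of a type and less RNA per cell cannot be told apart.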

How the data were processed

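The authors trimmed and mapped paired-end reads of 150 bases to GRCm38, and deposited whole-number read counts for each Ensembl gene without normalization, a column for each library. The submitters' processing notes name Trimmomatic 0.36, STAR 2.5.2b, featureCounts, Subread 1.5.2 and DESeq2. The strand setting, the annotation release and the batch of each library are not given in the sources used here, so no batch term could be fitted. Groups and replicate numbers came from the labels. No column was left out.

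Names, positions and lengths came from GENCODE M21, which matched 49056 of 49315 genes. Promoter windows came from RefSeq (GRCm38.p6), which matched 3 of the 4 members. Gm11748 had no entry.

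Genes with few counts were removed by filterByExpr at its defaults (10 counts, total of at least 15), libraries were scaled by TMM, and KO was compared with WT by a quasi-likelihood F-test (edgeR 4.0.16, R 4.3.3). It was two-sided, with Benjamini-Hochberg adjustment over 15700 genes and a threshold of 0.05. CPM used TMM library sizes, and log2 CPM a prior count of 1. The exact permutation tests used scipy 1.17.1. On simulated counts of 15700 genes for this comparison, edgeR recovered 76 of 100 genes changed by 1 and 62 of 100 changed by 0.5 on the log2 scale, and 6 of 144 calls (4.17%) were false. The simulated counts held no batch effect. With 144 calls against 3 in the real data, the adjusted threshold was also less strict there, so recovery in the real data may be lower. Alternatives were RLE and upper-quartile scaling, no filter, a stricter filter (50 counts in 7 libraries), DESeq2 1.42.0, the replicate number as a block and each library left out.

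The members, the gene lists and the tests were chosen with earlier results of these data known. The text names the 4 members, Timp2, the 2 members of each pathway list with the smallest p, the 3 neighbours with the smallest p, and the 5 genes most like Engase by each measure of likeness. Other genes it names (Man2c1os, Oxsm, Caskin2, Nfe2l1, Lgals3bp, Cant1, Rbfox3, Gm11747, Fbxo27, Derl3 and single markers) were named after their values were seen. No pair of libraries agreed within sampling noise (chi-square per degree of freedom of at least 5.86 over 91 pairs). The isolations were independent pools of pups. RPKM divides by an annotated length, since the transcripts in use are not known from gene counts.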

Additional observations from a re-analysis of the deposited data

How the results depend on the processing

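Under the other scalings, filters and tools, the log2 fold change of Engase lay between -1.19 and -1.18 and that of Gm11748 between -1.51 and -1.50. Without each library in turn they ranged from -1.24 to -1.13 and from -1.58 to -1.43. Ngly1 (0.01 to 0.03, and 0.01 to 0.05 without each library) and Man2c1 (0.02 to 0.03, and 0.02 to 0.04) kept their sign and passed the threshold under no alternative. The counts of pathway genes and of neighbours other than Timp2 past the threshold were 0 under every alternative. Over all genes, DESeq2 called 16 and DESeq2 with the replicate block 27, against 3 in edgeR.

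No label says that a replicate number marks a shared batch or litter, and same-numbered KO and WT libraries were not treated as pairs. Their deviations from the genotype means had correlations over 0.1 in 3 of 7 pairs. These were 0.743 for replicate 5, 0.392 for replicate 2 and 0.114 for replicate 6, and the others lay between -0.196 and -0.0991. The mean was 0.103, against -0.0156 for other KO and WT pairs, and 3 of 14 libraries correlated best with their own number. With the replicate block, edgeR gave log2 fold changes of -1.18 for Engase, -1.51 for Gm11748, 0.03 for Ngly1 (adjusted p = 0.873) and 0.03 for Man2c1 (adjusted p = 0.796), and 0 pathway genes, 0 neighbours and 3 genes in all were called. The standard error of Engase was 0.03 with the block and 0.09 without it, and 921 genes had an unadjusted p under 0.05 with the block against 529 without it. Engase itself followed the number: across the 7 numbers its log2 CPM in KO and WT had r = 0.92 (exact permutation p = 0.00833, adjusted over the 4 members 0.0333) and rho = 0.89 (exact permutation p = 0.0123, adjusted 0.0492), r = 0.75 without the 2 numbers farthest from the median in KO, and replicate 5 was highest in both genotypes. This relation, computed after seeing the data, had r = 0.54 for Gm11748, 0.25 for Ngly1 and -0.08 for Man2c1 (adjusted exact permutation p of 0.432, 0.792 and 0.792). The batch of each library, which the study used as a covariate, is not known here.

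The relation of Engase with Gm11748 changed its side of the threshold when the 2 libraries farthest from the median Engase level were left out. In KO (without replicates 4 and 5) r was 0.86 with an exact permutation p of 0.117 over 5 libraries, and in WT (without replicates 1 and 5) r was 0.88 with an exact permutation p of 0.0167. The alternative has fewer libraries. Without each library in turn, r ranged from 0.91 to 0.95 in KO and from 0.45 to 0.77 in WT, and on the linear scale it was 0.93 and 0.56. By the longest transcript, the levels became 13.4 (KO) and 30.3 RPKM (WT) for Engase, 8.43 and 8.27 RPKM for Ngly1, and 30.0 and 29.3 RPKM for Man2c1, since the merged exons are longer. That of Gm11748, which has 1 transcript, stayed the same. Gm11748 had at most 93 reads per KO library, which limits the precision of its values.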
